A study of Mus musculus with 2 samples.

Results

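The cytosolic ribosomal protein genes were examined in mouse spleen as 83 rows, out of 22216, of a deposited table of RPKM values. They were chosen by symbol alone, as Rpl or Rps followed by a number, with an optional letter a, x or y and an optional ending l or l1, together with Rplp0, Rplp1 and Rplp2. The study sequenced spleens of 2 mouse lines, named by genotype as NOD.g7 and NOD.L7 and related to the non-obese diabetic (NOD) mouse, an inbred strain that develops autoimmune diabetes. Spleens of 3 mice were pooled for each genotype and made into a single library of total RNA with a TruSeq kit, so no replicate exists. No treatment, age or sex is given, and the meaning of g7 and L7 is not spelled out in the labels. RPKM divides what was sequenced from a gene by its length and by the library's mapped total, so it is a level per length. Shared copies and incomplete gene models, described below, limit the comparison of these levels between genes. Pairs of values below give the RPKM of NOD.g7 first and that of NOD.L7 second. The spread between mice was not measured and the genotypes could not be tested against each other, so what is compared is 1 library with the other.

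The cytosolic ribosome is built from a large 60S subunit, which forms peptide bonds, and a small 40S subunit, which holds the messenger RNA and reads its codons. Most Rpl genes encode proteins of the former and Rps genes proteins of the latter. The acidic P proteins form a stalk on the large subunit that recruits translation factors. Messenger RNAs of ribosomal proteins begin with a run of pyrimidines, the 5′ TOP element, through which mTOR signalling and the protein LARP1 adjust their translation together. These genes have also left many processed pseudogenes, intronless copies inserted elsewhere in the genome, and a read that matches a gene and its copy equally cannot be placed with certainty.

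Coding stretches of 60 bases, from coding base 121 to 180, show how close such copies can be. They are given for Rpl27, which has 2 pseudogenes that hold all of its 50-base coding stretches, for Rpl21, with 81 pseudogenes that share at least 1 of them, and for Rpl32, the member with the highest RPKM in NOD.g7. Each is followed by a pseudogene, and capitals mark bases that differ from the gene. The sequences are from GENCODE M21 transcripts of GRCm38.
Rpl27: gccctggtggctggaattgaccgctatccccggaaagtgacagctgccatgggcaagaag
Gm11518: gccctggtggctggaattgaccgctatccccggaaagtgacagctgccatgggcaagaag
Rpl21: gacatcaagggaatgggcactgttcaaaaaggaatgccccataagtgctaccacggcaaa
Gm10163: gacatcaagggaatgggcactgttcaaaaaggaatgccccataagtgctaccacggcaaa
Rpl32: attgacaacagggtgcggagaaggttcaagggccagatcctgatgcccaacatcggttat
Rpl32-ps: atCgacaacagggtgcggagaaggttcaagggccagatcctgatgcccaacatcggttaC
Over these bases the copies shown for Rpl27 and Rpl21 differ from the gene at 0 positions, and the copy shown for Rpl32 at 2.

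Of the 83 genes, 80 shared at least 1 coding stretch of 50 bases with an annotated pseudogene. The other 3, among them Rpl3l and Rpl39l, shared none with any other annotated gene. For 30 genes every 50-base coding stretch was found in another gene, and for 25 genes every 100-base coding stretch was. The most pseudogenes were matched by Rpl7a, with 121, followed by Rpl21 and Rpl29 with 81 each and Rps2 with 71. The search covered annotated transcripts and not the genome, so copies without annotation were not counted.

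Genes with no 100-base coding stretch of their own were listed at low levels. These 25 genes lay between 2.34 and 151 in NOD.g7 (median 8.95) and between 2.08 and 151 in NOD.L7 (median 9.22). The 11 genes with at least 80% of such stretches to themselves, paralogues left out, ran from 136 to 1590 for NOD.g7 and from 124 to 1530 for NOD.L7. The ranges met only where Rps16, at 151 in both libraries, stood at the top of the former and Rpl22, at 136 and 124, at the foot of the latter. Between these classes the pattern had wide exceptions. Rps20, with 17.4% of its stretches to itself, was at 622 and 626, while Rpl21, with 22.8%, was at 1.15 and 1.10. The paralogues Rpl3l, Rpl10l and Rpl39l had 100% to themselves and were all under an RPKM of 1.

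The strength of this pattern depended on how copies were counted and on which genes were included. Across kept genes (defined below), the share of own 100-base coding stretches and the log2 of the mean RPKM had a Pearson r of 0.65 and a Spearman rho of 0.68 (78 genes). With 50-base coding stretches the values were 0.57 and 0.65, with 100-base stretches of the whole transcript 0.53 and 0.55, and with 50-base stretches of the whole transcript 0.41 and 0.42 (79 genes each). Over all members, the low genes included, the same 4 measures gave a Pearson r of 0.35, 0.19, 0.30 and 0.16 and a Spearman rho of 0.50, 0.46, 0.39 and 0.26. The 100-base coding measure was preferred after these data were seen, and it is the one with the highest coefficients. The points are genes of the same 2 libraries and no independent replicates. How far copies lowered the level of any gene was not tested, and the handling of reads with several matches is not given in the sources used here.

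**Figure D1:**
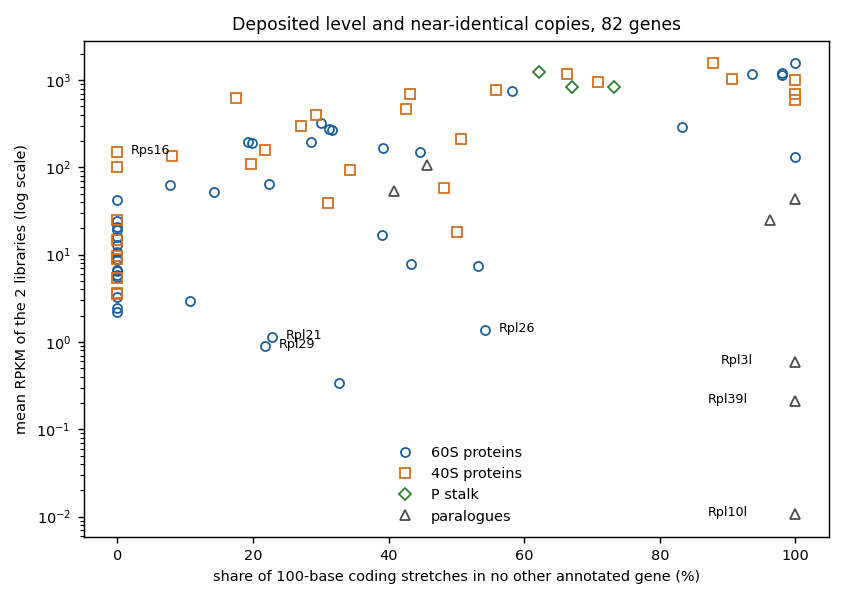
Mean RPKM of the 2 libraries (log scale) against the percent of 100-base coding stretches found in no other annotated gene, for 82 genes; each point is 1 gene and its shape gives the subunit. The points at 0% lie at or below an RPKM of 151, and above 80% all points but the paralogues lie above 100.

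Gene models set a further limit. In 5 rows the deposited span was under 700 bases, among them Rpl26 with 23 bases, Rps23 with 54, Rpl30 with 199 and Rps27 with 229. The row of Rpl26 (chromosome 11, 68715068 to 68715090, mm9) rested on about 359 sequenced bases in NOD.g7 and 293 in NOD.L7. That of Rps23 (chromosome 13, 91062727 to 91062780) rested on about 2018 and 2035. These values describe the stretch in the table and not the whole gene.

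Mapped sequence came to 9.13 Gb for the NOD.g7 library and 12.1 Gb for that of NOD.L7, worked out from the steps between low RPKM values. A fold is NOD.L7 over NOD.g7, and the range in brackets after it is its 95% Clopper-Pearson counting interval, from mapped bases divided by 200, as the assumed length of a fragment, over the coding length or, where shorter, the deposited span. Where that length was itself under 200 bases, as in Rpl26, Rps23, Rpl30, Rpl39, Rpl39l, Rpl41 and Rps29, it was taken as the length of a fragment. It covers counting error only and leaves out the variation between mice. A gene was kept at an RPKM of 1 or more in at least 1 library, which 79 of the 83 genes and 11141 of all genes reached. The paralogues Rpl3l, Rpl10l and Rpl39l were among those not kept.

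As a group the ribosomal protein genes were slightly lower in NOD.L7. Of the 79 kept genes 59 were lower and 20 higher. The lower ones made up 74.7%, against 43.8% of all kept genes, of which 56.2% were higher. The median log2 ratio, log2((NOD.L7 + 1)/(NOD.g7 + 1)), was -0.06, against 0.02 over all kept genes. The pseudocount of 1 understates the difference of low genes. The summed RPKM of the 83 genes was 23992 and 22908, a fold of 0.955, and amounted to 7.97% and 7.64% of the RPKM summed over all rows. Kept genes outside the group summed to 276113 and 275994.

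An absolute log2 ratio of 1 was reached by 0 of 79, against 0.709% of all kept genes. An absolute log2 ratio of 0.25 was reached by 3, against 13.6% of all kept genes. These were Rpl26, Rps23 and Rps18, all lower in NOD.L7, a side on which 4.74% of all kept genes lay that far out. On the higher side there were 0 members, against 8.82% of all kept genes, but 2 with a pseudocount of 0.1 and 1 with 0.5. The first 2 are the rows with the shortest spans. Rpl26 was at 1.71 and 1.05, a fold of 0.616 (0.272 to 1.36), and Rps23 at 4.10 and 3.12, a fold of 0.761 (0.480 to 1.25), so both intervals included 1. Rps18, a 40S protein, was at 20.02 and 16.5, a fold of 0.824 (0.720 to 0.944). It keeps 12.3% of its 50-base and 50.1% of its 100-base coding stretches to itself.

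The lean was also present among highly expressed genes. At an RPKM of 20 or more in at least 1 library, 43 of 53 ribosomal protein genes were lower, against 47.9% of all genes at that level. At 100 or more, 31 of 39 were lower with a median log2 ratio of -0.05, against 57.2% of all genes at that level. The 368 other genes at 100 or more had a median of -0.01, and 54.9% of them were lower. Among the 26 kept members under 20 in both libraries 16 were lower, and single ratios there ran from -0.40 to 0.24.

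**Figure D2:**
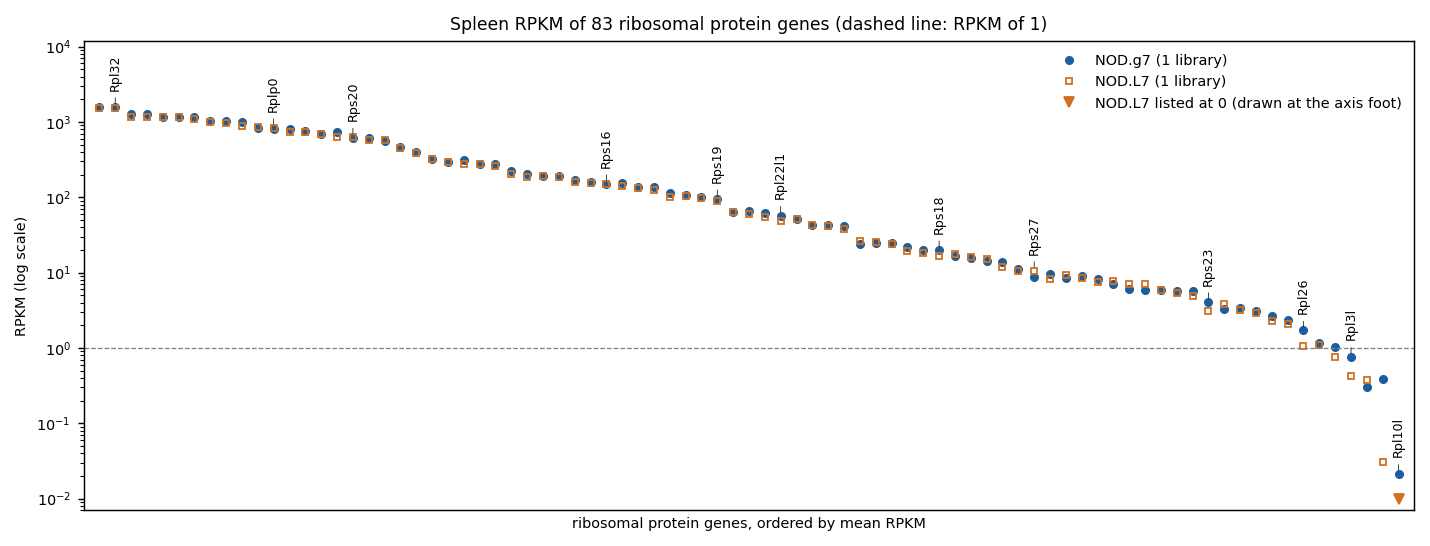
RPKM (log scale) of each of the 83 ribosomal protein genes in NOD.g7 (filled circles) and NOD.L7 (open squares), ordered by mean RPKM, 1 library per group, with 12 genes labelled. Levels run from 1590 for Rpl32 in NOD.g7 down to Rpl10l, which is listed at 0 in NOD.L7 and drawn at the axis foot, and the symbols of both libraries nearly coincide for most genes above an RPKM of 20.

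Genes with few shared stretches leaned the same way. The 11 genes with at least 80% of their 100-base coding stretches to themselves, paralogues left out, were all lower in NOD.L7, and the median log2 ratio was -0.09. Of all kept genes 43.8% were lower, and of all genes at an RPKM of 100 or more 57.2%. With the kept paralogues of that class, Rps27l and Rpl7l1, 12 of 13 were lower, the exception being Rpl7l1. Of the 25 genes with no such stretch 15 were lower, and the median was -0.06. Between the log2 ratio and the share of own stretches the Pearson r was -0.16 and the Spearman rho -0.15 across 78 kept genes. These classes were drawn up after the data were seen. They also differ in level. The 11 genes all lay above an RPKM of 100, where 31 of 39 members were lower. The 25 genes had a median of 8.95 in NOD.g7, and 16 of the 26 kept members under 20 in both libraries were lower. The share of own stretches was not tested apart from level.

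The members with the highest listed levels encode core proteins of both subunits. Rps15, a protein of the 40S head (chromosome 10, 79755176 to 79756859, mm9), was at 1585 and 1530. Rpl32, a 60S protein (chromosome 6, 115755574 to 115758761), was at 1590 and 1519. The next 8 genes by mean RPKM included Rplp1, Rpl13a, Rpl4, Rps9, Rpl8 and Rps14. Together the 10 genes made up 51.4% and 50.8% of the group's summed RPKM, and each of the 10 was lower in NOD.L7. Ribosomal protein genes were 10 of the 22 genes at 1000 or more in NOD.g7, and 8 of 19 in NOD.L7.

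Among proteins of the large subunit 33 of 42 kept genes were lower, and the median log2 ratio was -0.07. Rpl13a, a 60S protein that also takes part in the silencing of inflammatory messages after interferon gamma, was at 1281 and 1154, a fold of 0.901 (0.889 to 0.914). Rpl8, which lies near the peptidyl transferase centre, was at 1181 and 1109, a fold of 0.939 (0.927 to 0.951). Rpl4, which lines the exit tunnel, was also at 1181 in NOD.g7 but at 1159 in NOD.L7, a fold of 0.981 (0.971 to 0.991). The counting intervals of these 3 genes do not overlap. Rpl39, another protein of the exit tunnel, was at 313 and 273, a fold of 0.871 (0.828 to 0.916).

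Lower down, Rpl15 was at 9.68 and 8.29, and Rpl29 at 1.02 and 0.757. Every 100-base coding stretch of Rpl15 occurs in another annotated gene, and Rpl29 keeps 21.8% to itself. Rpl5 and Rpl11, which with 5S ribosomal RNA bind the p53 regulator MDM2 when ribosome assembly is disturbed, have no own 100-base coding stretch. Over the whole transcript the share of own 100-base stretches was 71.7% for Rpl15, 49.1% for Rpl29, 52.8% for Rpl5 and 40.3% for Rpl11. Rpl5 was listed at 8.95 and 8.46, a fold of 0.944 (0.821 to 1.09). Rpl11 was listed at 3.37 and 3.14, a fold of 0.932 (0.688 to 1.26). Neither difference was detectable at this depth. The 60S genes with the highest ratios were Rpl28, at 5.90 and 7.04, Rpl24, at 6.15 and 7.08, and Rpl34, at 7.12 and 7.83, and their intervals included 1.

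In the small subunit 22 of 30 kept genes were lower, and the median log2 ratio was -0.06. Rps14, a 40S protein whose human gene lies in a deletion that causes a form of anaemia, was at 1007 and 879, a fold of 0.873 (0.857 to 0.889). Rps21 was at 736 and 638, a fold of 0.868 (0.842 to 0.893). By contrast Rps26, at 689 and 687, had a fold of 0.998 (0.973 to 1.02), and Rps20, at 622 and 626, one of 1.01 (0.981 to 1.03). The latter pair was picked for its folds near 1.

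Rps3, which lines the entry channel of the messenger RNA, was at 606 and 571, a fold of 0.944 (0.926 to 0.961). Rps9 was at 1171 and 1152, a fold of 0.984 (0.969 to 0.999). Both were lower in NOD.L7 with intervals below 1.

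Other 40S genes were listed at lower levels. Rps19, the gene most often affected in inherited Diamond-Blackfan anaemia, was at 95.3 and 88.9, a fold of 0.933 (0.878 to 0.992). Rps15a was at 62.3 and 53.9, a fold of 0.865 (0.798 to 0.939). Rps6, the target of the S6 kinases whose phosphorylation is used as a readout of mTOR signalling, was listed at only 5.78 and 4.94, and every 100-base coding stretch of it is found elsewhere. At the other end Rps27 was at 8.77 and 10.6, Rps29 at 3.24 and 3.77, Rps13 at 8.50 and 9.22, and Rps27a, made as a fusion with ubiquitin, at 14.2 and 15.4. These 4 genes share all of their 100-base coding stretches with other genes, and their intervals of the fold included 1. Over whole transcripts their share of own 100-base stretches ran from 1.63% for Rps27 to 75.3% for Rps29, and that of Rps6 was 16.4%.

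The stalk genes differed among themselves. Rplp0, the base of the stalk (chromosome 5, 116009476 to 116013738, mm9), was at 817 and 837, a fold of 1.02 (1.01 to 1.04). Rplp2 (chromosome 7, 148633549 to 148637241) was at 824 and 851, a fold of 1.03 (1.01 to 1.06). Rplp1 (chromosome 9, 61761090 to 61762317), whose protein pairs with that of Rplp2, was at 1271 and 1181, a fold of 0.930 (0.912 to 0.947). Rplp0 and Rplp2 were the 2 kept members, of 79, whose counting interval lay wholly above 1. In 32 members it lay wholly below 1, and in 45 it included 1. Such intervals were not worked out for genes outside the group. No all-gene share of these calls is therefore available, and whether the counts are unusual was not tested. These calls depend on the scaling. With folds divided by 1.01, the factor of the all-gene median, 0 members lay wholly above 1, 35 wholly below and 44 included 1. Rplp0 then had a fold of 1.01 (0.999 to 1.03) and Rplp2 one of 1.02 (0.998 to 1.04).

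**Figure D3:**
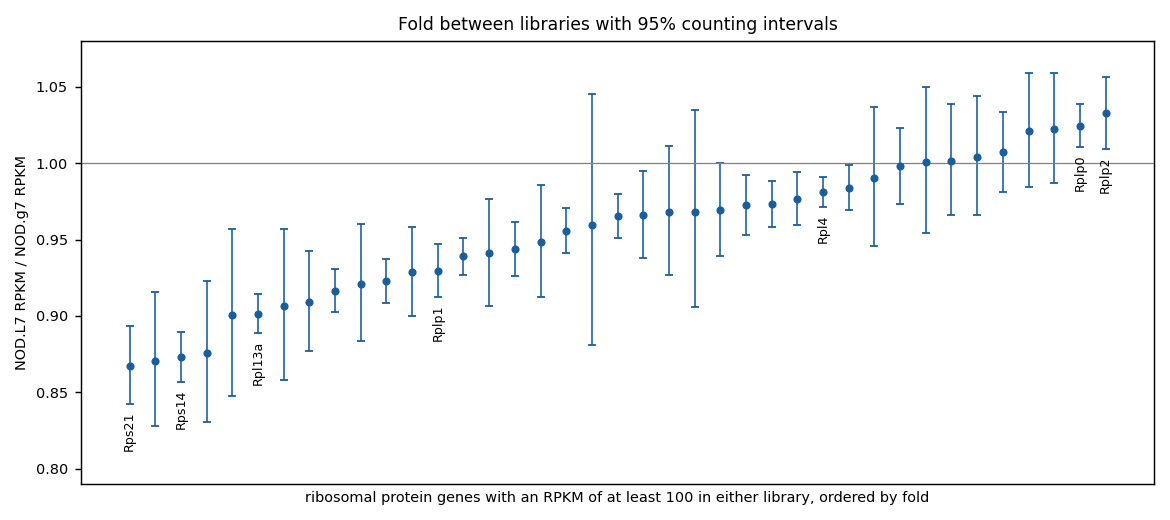
Fold of NOD.L7 over NOD.g7 for the 39 ribosomal protein genes with an RPKM of 100 or more in at least 1 library, ordered by fold; bars are 95% counting intervals and leave out variation between mice, and 7 genes are labelled. Folds run from 0.868 for Rps21 to 1.03 for Rplp2, and the axis does not start at 0.

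Paralogues are separate genes that encode close variants of a ribosomal protein, some of them mainly in testis or muscle. Coding bases 61 to 120 of 4 genes are shown above the best matching stretch of the paralogue, with differing bases in capitals, because they show how far each pair can be told apart.
Rpl36a: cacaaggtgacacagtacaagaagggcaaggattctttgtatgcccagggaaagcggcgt
Rpl36al: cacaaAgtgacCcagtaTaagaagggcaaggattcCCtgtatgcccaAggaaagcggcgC
Rpl22: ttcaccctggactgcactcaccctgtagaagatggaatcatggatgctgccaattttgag
Rpl22l1: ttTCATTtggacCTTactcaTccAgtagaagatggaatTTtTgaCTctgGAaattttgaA
Rpl39: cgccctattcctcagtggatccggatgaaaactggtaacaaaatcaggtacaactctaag
Rpl39l: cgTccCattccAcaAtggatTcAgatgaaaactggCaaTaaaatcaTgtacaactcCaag
Rps27: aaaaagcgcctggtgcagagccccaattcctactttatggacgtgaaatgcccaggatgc
Rps27l: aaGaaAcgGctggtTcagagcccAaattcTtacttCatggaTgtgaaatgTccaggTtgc
The differing bases number 7, 18, 10 and 10 of 60 in the order shown.

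Over the aligned coding sequence, identity was 87.7% for Rpl36a and Rpl36al, 70.2% for Rpl22 and Rpl22l1, 85.0% for Rpl39 and Rpl39l, and 75% for Rps27 and Rps27l. Rpl22, which is needed for the development of alpha-beta T cells, was at 136 and 124, a fold of 0.906 (0.858 to 0.957). Rpl22l1 was lower as well, at 57.3 and 49.1, a fold of 0.858 (0.786 to 0.937), and the 2 intervals overlap. Rps27l, a p53 target, was at 43.4 and 42.9 and so was listed above Rps27. Likewise Rpl36al, at 108 and 104, was listed above Rpl36a, at 5.90 and 5.95. In both of these pairs the parent gene has no 100-base coding stretch of its own, while Rpl36al has 45.7% and Rps27l 100%.

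The remaining paralogues were at lower levels. Rpl7l1, at 62.6% identity to Rpl7, was at 23.9 and 26.2, a fold of 1.09 (0.999 to 1.20), beside 756 and 736 for Rpl7. Rpl3l, the heart and skeletal muscle form of Rpl3 at 74.4% identity, was at 0.764 and 0.426, a fold of 0.557 (0.332 to 0.884) that rests on about 43 and 31 fragments. Its parent Rpl3 was listed at only 3.07 and 2.90, and 26 pseudogenes share its coding stretches. Rpl39l was at 0.392 and 0.0301, about 4 fragments and 0. Rpl10l, the testis copy of Rpl10 at 84.7% identity, was at 0.0214 in NOD.g7 and is the 1 member listed at 0 in NOD.L7. Rpl10 itself was at 13.8 and 11.96.

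Some ribosomal proteins have symbols outside the pattern. Gnb2l1, the 40S scaffold protein RACK1, was at 1105 and 1050, and Rpsa, a 40S protein also known as the laminin receptor, at 214 and 209. Fau, made as a fusion of a ubiquitin-like protein with a 40S protein, was at 15.0 and 15.4. Gnb2l1 and Rpsa were thus lower in NOD.L7 and Fau slightly higher.

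Other genes of the translation machinery were counted in the same way. Of 36 initiation factor genes 17 were lower, and the median log2 ratio was 0.01. Those furthest from 0 were Eif2b3, at 7.55 and 6.74, Eif4e, the cap-binding factor, at 13.24 and 14.49, Eif2s2, at 14.3 and 15.5, and Eif1ax, at 37.7 and 40.8. A further list held elongation factors, termination factors, other messages with a 5′ TOP element and related genes such as Eif4ebp1 and Eef1e1. Of its 18 kept genes 9 were lower, and the median was -0.001. Furthest from 0 among them were Eif4ebp1, the mTOR-regulated inhibitor of cap binding, at 13.5 and 15.8, Eef1e1, at 14.9 and 16.6, Nap1l1, at 27.8 and 25.7, and Gas5, at 37.4 and 34.8. The most abundant genes of that list, named after their values were seen, were the elongation factors Eef1a1, at 2971 and 2973, and Eef2, at 1108 and 1130.

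Of 45 kept ribosome biogenesis genes 22 were lower, and the median log2 ratio was 0.01. Furthest from 0 were Rrp1b, with a fold of 1.15, Mrto4, at 16.2 and 14.5, Nol6, at 19.0 and 17.1, and Bysl, at 8.80 and 8.03. Of 13 genes of RNA polymerase I, which transcribes ribosomal RNA, 4 were lower, and the median was 0.04. Of 17 kept genes in a list of mTOR regulators, S6 kinases and related genes, 5 were lower, and the median was 0.05. The related genes Myc, Max, Pdcd4, Eif4ebp2 and Larp1 were higher in NOD.L7, with folds from 1.01 for Larp1 to 1.09 for Myc. The 5 lower genes were Akt1s1 (fold 0.919), Tsc1 (0.932), Tsc2 (0.973), Rps6kb2 (0.989) and Mtor (0.996). Of 74 kept mitochondrial ribosomal protein genes, which serve a separate ribosome, 36 were lower, and the median was 0.003. In each of these lists 0 genes reached an absolute log2 ratio of 0.25. Whether the cytosolic ribosomal protein genes differ from them beyond the variation between mice could not be tested with 1 library per genotype.

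**Figure D4:**
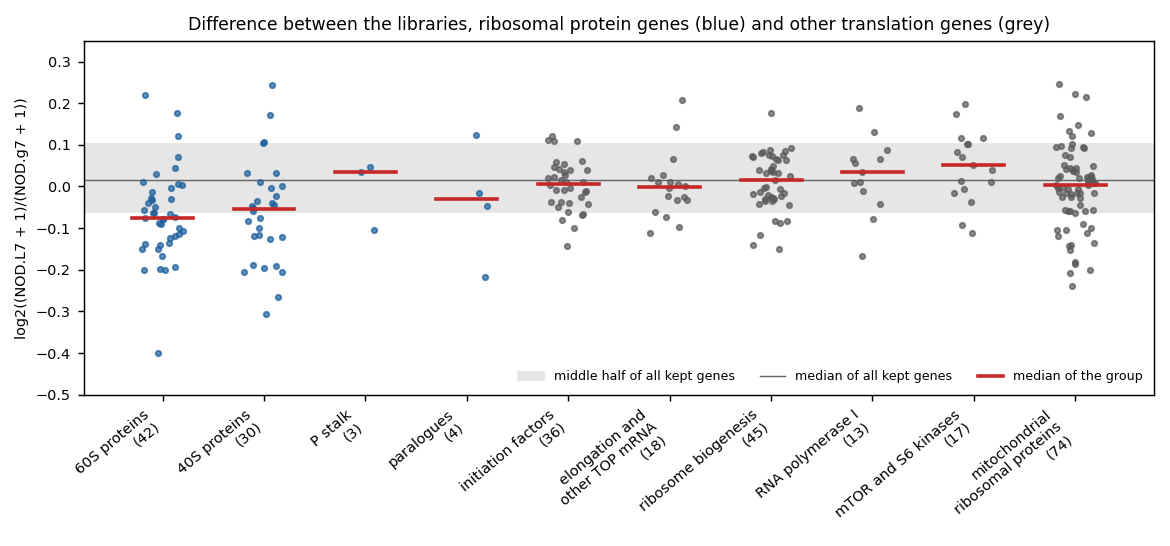
Log2 ratio of NOD.L7 to NOD.g7 (pseudocount 1) for kept ribosomal protein genes (blue) and other translation genes (grey), 1 point per gene, with group medians as red bars, the number of genes in brackets, and the middle part of all kept genes shaded around their median. The medians of the 60S and 40S genes, -0.07 and -0.06, lie below 0, and those of the other translation lists lie between -0.001 and 0.05.

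Start sites were described for the 62 of 83 genes found among the RefSeq promoters of GRCm38.p6. A pyrimidine motif, taken as CTTTT or CTTTC or CTTCC or CTTCT or CTCTT or CCTTT on the sense strand within 10 bases of an annotated start, was found in 25 genes (40.3%), against 14.7% of 27025 genes with a promoter. Several of these motifs overlap one another. On the opposite strand of the same window they were found in 8.06% of members and 15.4% of all genes. Stretches of 30 bases around the start are shown for the 6 members with the motif and the highest mean RPKM, with motif bases in capitals. They were picked for holding the motif, which most of the 62 genes did not hold in this window.
Rps9: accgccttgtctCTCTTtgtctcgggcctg
Rplp2: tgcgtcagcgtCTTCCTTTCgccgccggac
Rps26: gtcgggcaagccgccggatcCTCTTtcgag
Rpl18: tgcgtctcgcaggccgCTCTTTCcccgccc
Rps24: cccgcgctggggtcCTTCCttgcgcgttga
Rpl35: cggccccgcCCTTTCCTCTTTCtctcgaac
They lie at chr7:3704026-3704055, chr7:141447636-141447665, chr10:128626492-128626521, chr7:45718056-45718085, chr14:24490663-24490692 and chr2:39005117-39005146 of GRCm38.p6 in that order, those of Rps26 and Rpl35 on the minus strand. Of these genes only Rplp2 was higher in NOD.L7, at 824 and 851. The others were lower, such as Rpl18 at 280 and 260.

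Of the 24 kept members with the pyrimidine motif 20 were lower in NOD.L7, and the median log2 ratio was -0.10. Of the 35 without it 25 were lower, and the median was -0.05. For CCGGAAG, described next, the medians were -0.08 with the motif (20 of 23 lower) and -0.07 without (25 of 36). For AAGATGG they were -0.03 with it (7 of 10 lower) and -0.08 without (38 of 49). None of these differences was tested. The motif CCGGAAG, which resembles sites of ETS factors, was searched on both strands from 250 bases before to 50 after the start, and was in 38.7% of members, 36.8% of mitochondrial ribosomal protein genes and 9.93% of all genes. The motif AAGATGG, which resembles sites of YY1, was searched likewise and was in 16.1% of members, 19.1% of mitochondrial ribosomal protein genes and 7.28% of all genes. Among the 15054 promoter genes that also have a deposited RPKM, CCGGAAG was in 13.0%, AAGATGG in 7.43% and the pyrimidine motif in 14.4%. A match is a run of letters and no evidence of binding.

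Cell type markers differed between the same libraries, and in whole spleen fewer cells of a type and less RNA per cell cannot be told apart. All 6 B cell markers were lower in NOD.L7, with a summed RPKM of 2255 and 1880, and 3 of the 6 T cell markers were, with a sum of 733 and 742. All 5 NK cell markers (147 and 63.3) and all 5 erythroid markers found in the table (96.3 and 38.2) were lower. All 7 monocyte and macrophage markers found (227 and 374) and all 5 neutrophil markers (707 and 969) were higher. No marker found was at 0 in both libraries. The part of this cell makeup in the lower ribosomal protein levels was not tested.

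Of 16 members linked to Diamond-Blackfan anaemia, an inherited failure of red cell production, 13 were lower, and the median log2 ratio was -0.08. That list was drawn up after the data were seen. It includes Rps19, Rps7, Rps10, Rps24, Rps26, Rps28, Rpl5, Rpl11, Rpl15, Rpl31 and Rpl35a. Rps10 was at 116 and 101, a fold of 0.876 (0.831 to 0.923), while Rps7 was at 138 and 133, a fold of 0.968 (0.927 to 1.01).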

How the data were processed

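The authors deposited a table of RPKM values per gene, with 1 column per library. The submitters' processing notes name CASAVA 1.8.2, SAMtools 0.1.18 and mm9. By its name, the column with LC7 was matched to NOD.L7. Values were used as deposited, with a pseudocount of 1. Depth was recovered from single-exon genes, whose low RPKM times length gave whole bases within 0.15 for 100% of 103 and 115 values. Copies were searched as exact stretches of 50 and 100 bases in GENCODE M21 transcripts of genes that do not overlap the member. Scripts were tested on simulated data. Python 3.11.15, pandas 2.3.3 and scipy 1.17.1 were used.

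Genes named with values are the 10 of highest mean RPKM, 8 at either end of the log2 ratio, paralogues, stalk genes, members at 0, 7 genes of known roles and up to 4 genes of each other list. A few genes that the rule names are not reported here. Genes given only as examples of copies, short spans, stable levels, start sites or anaemia were picked after their values were seen.

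The members and lists were chosen with earlier results of these data known. The copy search was planned on a genome, which was not used here. Its replacement was redefined 3 times after values had been seen, from the longest transcript to the coding sequence, then leaving out overlapping genes, then preferring CCDS transcripts. The length behind the counting intervals was also changed once after results were seen, from the transcript to the shorter coding length, which widened them.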

Additional observations from a re-analysis of the deposited data

How the results depend on the processing

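No paired analysis was possible because there is a single library per genotype, and for the same reason no replicate could be left out. The median log2 ratio of the ribosomal protein genes stayed below 0 under every alternative run. It was -0.0640 as reported, -0.0656 with a pseudocount of 0.1, with one of 0.5 and without paralogues, -0.0803 with ratios centred on the median and -0.0819 with a TMM factor. Under the last pair 64 of 79 members (81.0%) were lower, and the median of all genes was 0 and -0.00192. Splits added after the data were seen gave -0.0872 for members with at least 50% of their 100-base coding stretches to themselves, -0.0872 (85.7% of members lower) for those with at least 80% of the 50-base stretches of the transcript, and -0.0486 with 100-base stretches.

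Members at an absolute log2 ratio of 0.25 or more numbered 3, against 6 with a pseudocount of 0.1 (2 of them higher), 5 with 0.5 (1 higher), 5 without a filter on low values, 1 with a filter at an RPKM of 5 and 0 in the 50-base transcript split. Of all genes 79 reached a log2 ratio of 1, against 166, 124 and 52 with pseudocounts of 0.1 and 0.5 and the filter at 5, which left 808 of 1511 at 0.25. The planned splits on a genome search were not run. Depth limits low genes, and 11 kept members rested on fewer than 100 fragments in a library.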

Other observations

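Chromosome 7 holds 14 kept members, of which 9 were lower in NOD.L7. Their median log2 ratio was -0.06, as was that of the 65 kept members elsewhere, of which 50 were lower. All kept genes on chromosome 7 had a median of 0.02, and 43.0% were lower. On chromosome 17, 4 of 7 kept members were lower, and the median was -0.06. Of the 72 kept members elsewhere 55 were lower, with a median of -0.06. All kept genes on chromosome 17 had a median of 0.008, and 45.7% were lower. Both chromosomes were chosen after the values were seen.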
